A study of Homo sapiens with 4 samples.

Results

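The domains described here are the large ones, 500 to 950 kb long, in Hi-C domain lists of VA-ES-BJ, an epithelioid sarcoma cell line. They were chosen by their listed length alone, the end minus the start, on the 22 autosomes. This gave 2488 of the 26136 domains in the 4 lists, 616 of 6530 with empty vector A, 631 of 6486 with empty vector B, 619 of 6531 with BAF47 A and 622 of 6589 with BAF47 B. Both groups were infected with a lentivirus and selected with blasticidin at 10 µg/ml. In 2 samples the virus carried no insert (empty vector), and in 2 it carried BAF47 under constitutive expression. The labels give 48 hours and 5 days for virus exposure, selection and growth in different ways, and do not say whether A and B were separate infections, so every p-value below rests on spread that could be technical. The level of BAF47 and the read depth are unknown from these files.

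Topologically associating domains are stretches of a chromosome whose sequences contact each other more than they contact the neighbouring stretches. In Hi-C, crosslinked chromatin is cut and ligated, so that sequences close together in the nucleus are read as pairs, and domains are called from the map of such pairs. Many domain borders are set by the protein CTCF, which stops the loop-extruding cohesin complex. SMARCB1 encodes BAF47, which belongs to the core of the SWI/SNF or BAF complex, a machine that moves nucleosomes and keeps enhancers accessible. Epithelioid sarcomas commonly lack it. The comparison asks whether putting BAF47 back changes how long domains are laid out.

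The lists give starts and ends on a 50 kb grid and nothing else, so a domain of 500 kb spans 10 steps of that grid and no edge can be placed more finely. Per the submitters' processing notes, hg18 was the build, but positions are running bin positions that leave out some bins. Domains start at 0 in all 20 lists of the acrocentric chromosomes, whose short arms have no sequence in that build. Positions below are therefore listed positions in the numbering of empty vector A, not hg18 coordinates, and no gene or sequence was placed on them. No list holds a gap of 100 kb between neighbouring domains, whereas each holds 440 to 488 gaps of 150 kb. Whether each end marks the first or the last base of its bin is not given in the sources used here, and if the former, every length is 50 kb short.

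Chromosomes 9 and 20 carried an offset of 1 bin that makes intact large domains look changed. On chromosome 9 the BAF47 A list sat 50 kb above empty vector A from 51.2 Mb to its end at 122 Mb. In that stretch 0 of its 22 large domains had the same edges as in empty vector A as listed, and 14 had them after a shift of 1 bin. The BAF47 B list showed the same step from 38.65 Mb, with 0 of 19 large domains identical as listed and 11 after the shift. On chromosome 20 the BAF47 B list sat 50 kb lower from 13.75 Mb onwards, where the counts were 0 of 8 and 3 of 8. No other chromosome and no part of empty vector B met the rule for an offset. All comparisons between lists below use positions aligned to empty vector A in these 3 blocks, and the values on the positions as listed are given where they differ in call or by over 1.5 times.

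Large domains were about as numerous with BAF47 as without. They made up 9.43% and 9.73% of the domains with empty vector A and B and 9.48% and 9.44% with BAF47 A and B. Empty vector B held the most and empty vector A the fewest, so that both BAF47 samples fell between the empty vector samples. The means were 623.5 ± 10.6 and 620.5 ± 2.1 domains (SD, n = 2 each), a difference of -3 for BAF47 minus empty vector against a gap of 15 between the empty vector samples (exact two-sided permutation test, p = 1; 2 samples against 2 cannot give less than 0.33). Without empty vector B the difference turned to 4.50 more with BAF47. Large domains covered 407 and 416 Mb with empty vector and 409 and 410 Mb with BAF47, between 18.6% and 19.2% of the length of all listed domains.

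Within the class the numbers fell from 500 kb upwards and the 4 lists kept close together. The 500 kb domains numbered 129 and 138 with empty vector and 130 and 134 with BAF47. The 950 kb domains numbered 29 and 30 with empty vector and 30 and 28 with BAF47. The fall was not even, since 900 kb domains (43 to 47 per list) outnumbered 850 kb domains (26 to 34) in every list. Just outside the class, 148 to 164 domains per list measured 450 kb and 25 to 31 measured 1000 kb, so neither limit marks a break. Mean lengths were 659 to 660 kb in each list, as the limits largely fix.

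**Figure D1:**
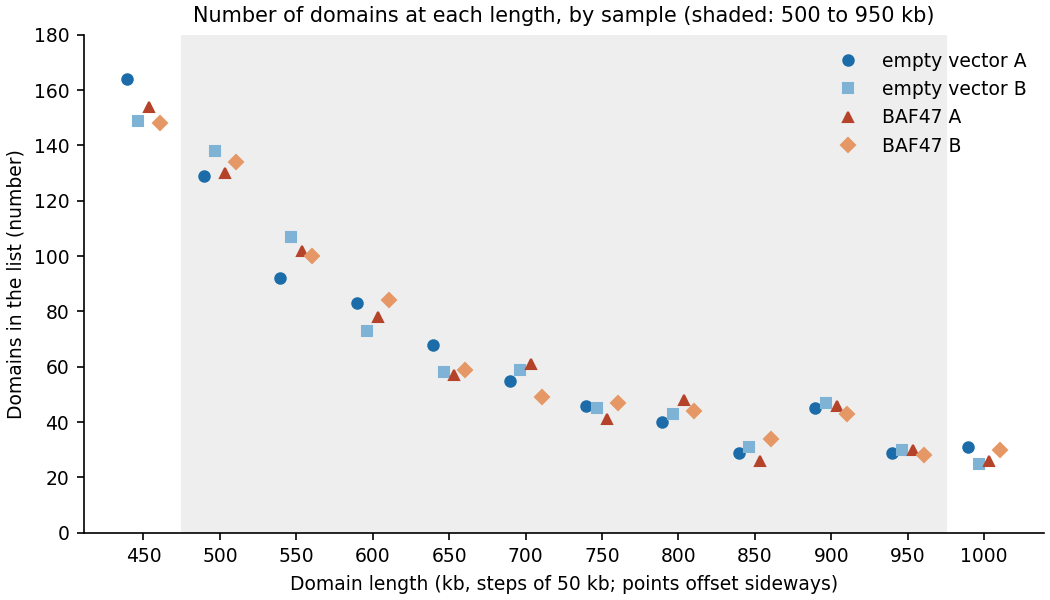
Number of domains (vertical axis) at each listed length from 450 to 1000 kb (horizontal axis), 1 point per sample, with the class of 500 to 950 kb shaded. The points of the 4 samples lie close together at every length, from 129 to 138 at 500 kb to 28 to 30 at 950 kb, with a step up at 900 kb in every list.

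About 3 in 4 large domains came back with identical edges in the other sample of the same vector, and fewer did so in the other vector. Of the 616 large domains of empty vector A, empty vector B listed 74.8% with the same start and end, whereas BAF47 A listed 69.2% and BAF47 B 68.0%. Of the 631 of empty vector B, empty vector A listed 73.1%, BAF47 A 68.3% and BAF47 B 66.6%. Both lists of this vector thus resembled each other more than either resembled a BAF47 list. Of the 619 of BAF47 A, BAF47 B listed 74.8%, empty vector A 68.8% and empty vector B 69.6%. Of the 622 of BAF47 B, BAF47 A listed 74.4%, empty vector A 67.4% and empty vector B 67.5%. No other-vector value reached a same-vector value. The same-vector share exceeded the other-vector share in 4 of 4 samples, by 5.57 to 6.99 percentage points and 6.11 on average (exact two-sided sign-flip permutation test over samples, p = 0.13, the smallest this test gives with 4 samples). The 4 samples share lists and are not independent, as each pair of lists is counted from both sides. The sign-flip p-values for retention and fates, here and below, are therefore too low. With 2 lists against 2, relabelling cannot give less than 0.33. The difference was 8.12 points on the positions as listed and 3.64 points with a reciprocal overlap of 80% in place of identical edges.

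Taken as whole classes, shorter and longer domains showed smaller differences between the vectors, but the nearest shorter domains did not. Domains of 100 to 450 kb were kept at 73.9% in the same vector and 70.9% in the other, a difference of 2.98 points, and domains of 1 Mb or more at 70.1% and 66.9%, a difference of 3.20 points. The large domains' difference exceeded that of the 100 to 450 kb domains in 4 of 4 samples, by 1.54 to 4.38 points and 3.14 on average (exact sign-flip permutation test, p = 0.13, the smallest possible), a comparison chosen after the shares were seen. It came to 1.98 points without empty vector A, to 4.73 points without BAF47 A, and to 1.03 points, in 3 of 4 samples, when an overlap of 80% counted as kept (exact sign-flip p = 0.250). Length by length, the 450 kb domains just below the class were kept at 76.2% in the same vector and 68.8% in the other. Their difference of 7.40 points exceeded the class mean, and inside the class the lengths ranged from 4.27 points at 950 kb to 10.2 points at 750 kb. From 100 to 400 kb the differences were 1.10 to 3.46 points, and at 1000 kb 3 points. In the same vector, large domains were kept about as often as those of 100 to 450 kb, with a difference of 0.358 points that ranged from -0.823 to 1.5 over the samples (exact sign-flip p = 0.625). In the other vector they were kept less often than those of 100 to 450 kb in 4 of 4 samples, with a mean difference of -2.78 points (exact sign-flip p = 0.13). That order turned with the 80% overlap, a rule that a move of 1 bin can break in short domains but not in large ones, and large domains were then kept 10.5 points more often.

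**Figure D2:**
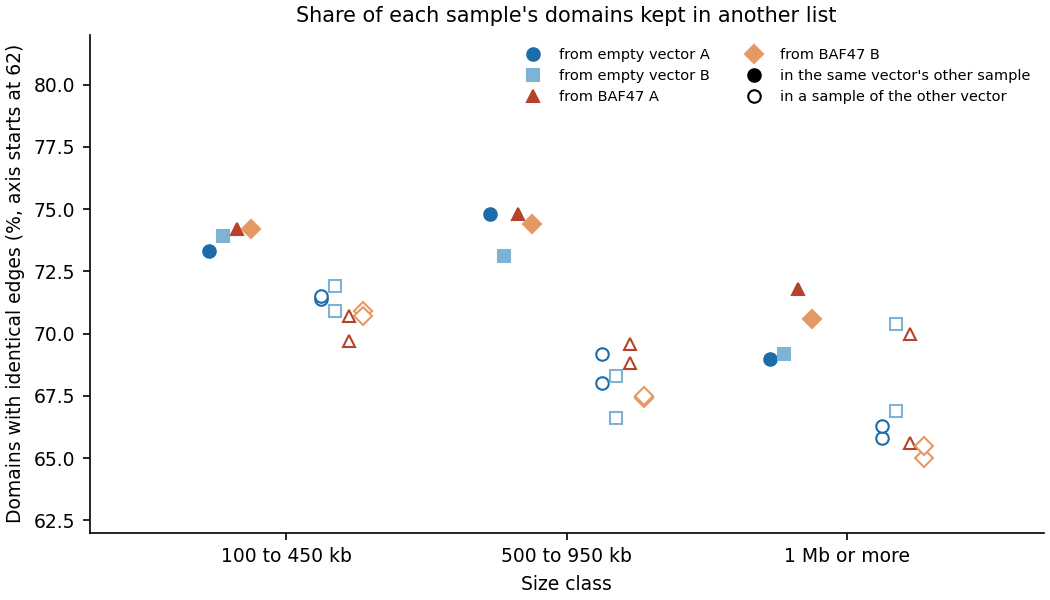
Share of each sample's domains found with identical edges in another list (vertical axis, percent, starting at 62), for 3 size classes (horizontal axis); colour and marker give the sample followed, filled points the other sample of its vector and open points each sample of the other vector. For 500 to 950 kb the filled points lie between 73.1% and 74.8% and the open ones between 66.6% and 69.6%.

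Retention did not follow length within the class in a simple way. In the other vector it ranged from 62.8% at 850 kb and 63.7% at 750 kb to 75.2% at 900 kb, as means over the 8 comparisons between lists of different vectors. At each of the 10 lengths the same-vector mean was the higher one, from 70.6% at 850 kb to 80.8% at 900 kb. Single comparisons at one length rest on as few as 26 domains and spread widely, as at 850 kb, where same-vector values ran from 55.9% to 79.3%.

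Most large domains that were not kept whole still kept an edge. From empty vector A to empty vector B, 155 domains were not identical, of which 116 kept 1 edge in place, 16 kept both with a different arrangement inside, and 23 kept neither. From empty vector A to BAF47 A the counts were 138, 28 and 24 of 190. Domains with neither edge in place made up 3.05% to 3.73% of a list in the same vector and 3.49% to 5.95% in the other, and these ranges overlap. Measured by length, 89.0% to 91.0% of the bins inside large domains lay inside a large domain of the other sample of the vector, and 86.0% to 88.2% did so in the other vector. These ranges do not overlap. Another 4.90% to 6.46% of bins lay in shorter domains in the same vector and 5.88% to 7.95% in the other. Neither edges nor bins were followed in this way for domains of other lengths, so these values are not read as particular to large domains.

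Over all 4 lists there were 1000 distinct large domains, of which 330 were listed identically in all 4 and 314 in a single list. Another 214 were listed in exactly 2 lists. Both empty vector lists and no other held 60 of these, and both BAF47 lists and no other held 62. The rest were shared by a single list of each vector. The same split was not counted over domains of any length, so these counts are not read as particular to large domains. The domains of a single list were spread over the samples, with 74 and 88 in empty vector A and B and 68 and 84 in BAF47 A and B.

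Of the 330 common domains, 41 (12.4%) adjoined another across a single bin. This share was not counted for common domains of any length, so it is not read as high or low. The 41 formed 20 runs, and the longest run was of 3 domains. It lay on chromosome 2 from 145.15 to 147.35 Mb, with domains of 550, 850 and 700 kb. Next were pairs of 900 and 850 kb on chromosome 8 (123.75 to 125.55 Mb) and of 750 and 800 kb on chromosome 1 (175.85 to 177.45 Mb). In these stretches no edge differed in any of the 4 lists.

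To follow change across vectors, large domains with identical edges in both samples of one vector were traced in both samples of the other. There were 461 such domains with empty vector and 463 with BAF47. In both BAF47 samples, 330 of the 461 were kept (71.6%, 95% Wilson interval 67.3 to 75.5%), against 73.6% of the 4679 domains of any length. In both empty vector samples, 330 of the 463 were kept (71.3%, 67.0 to 75.2%), against 72.3% of 4766 of any length. The large domains thus lay near the background in both directions. The largest overlapping domain in the other vector was again 500 to 950 kb long for 91.1% to 92.9% of them. It was shorter for 5.18% to 7.13% and 1 Mb or more for 1.51% to 2.17%. Intervals here cover counting error only, and neighbouring domains are not independent.

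Changes found in both samples of the other vector were few and ran in both directions. A domain was called moved when both its edges lay within 1 bin of those of a single domain, and parted when 2 or more domains filled its span to within 1 bin at each end. It was called absorbed when a single domain covered it and ran at least 2 bins beyond it, and shortened when the main overlapping domain lay inside it and covered at least 50% of it. Of the 461 empty vector domains, 21 were moved (4.56%, against 3.76% at any length), 12 parted (2.60%, against 1.30%), 10 absorbed (2.17%, against 2.82%) and 3 shortened (0.651%, against 0.128%). Of the 463 BAF47 domains, traced in the empty vector lists, 24 were moved (5.18%, against 4.01%), 13 parted (2.81%, against 0.986%), 13 absorbed (2.81%, against 3.13%) and 5 shortened (1.08%, against 0.168%). The shares parted lie above the background, but domains of 50 kb, which the background includes, cannot be parted on this grid. Domains of 100 kb cannot be parted either, unless the parts adjoin without a gap. Among domains of 100 to 450 kb, which include these, 1.23% and 0.864% were parted, and among those of 1 Mb or more 3.60% and 2.07%. The shares shortened also lie above the background. However, a trim beyond 1 bin leaves under 50% of the shortest background domains, so these cannot be called shortened. Among domains of 1 Mb or more, 1 of 278 and 1 of 290 were shortened, too few to compare with the large domains. Another 84 of the 461 (18.2%, against 17.8% at any length) and 78 of the 463 (16.8%, against 18.8%) had different fates in the 2 samples of the other vector.

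The same changes occurred between samples of one vector. In the same vector 4.87% to 6.11% of a sample's large domains were parted in the other list, and in the other vector 5.79% to 9.51%. The mean difference, same minus other vector, was -1.99 points, with the same direction in 4 of 4 samples (exact sign-flip permutation test, p = 0.13, the smallest possible). Of large empty vector domains, 7.63% to 9.51% were parted in a BAF47 list. Of large BAF47 domains, 5.79% to 7.07% were parted in an empty vector list, ranges that do not overlap. Domains of 100 to 450 kb showed the same order, with 3.52% to 4.24% and 2.57% to 3.48%. For those of 1 Mb or more the ranges, 5.72% to 8.19% and 5.69% to 7.06%, overlapped. Large domains parted in both samples of the other vector, 12 and 13, did not show this order, and it was not tested. Absorbed domains made up 2.54% to 3.88% in the same vector and 4.60% to 7.07% in the other, a mean difference of -2.35 points, again in 4 of 4 samples (exact sign-flip p = 0.13). Moves by 1 bin made up 13.9% to 16.0% in the same vector and 14.9% to 16.6% in the other, ranges that overlap. Their mean difference was -0.928 points, from -2.49 to 0.396 over the samples (exact sign-flip p = 0.375).

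**Figure D3:**
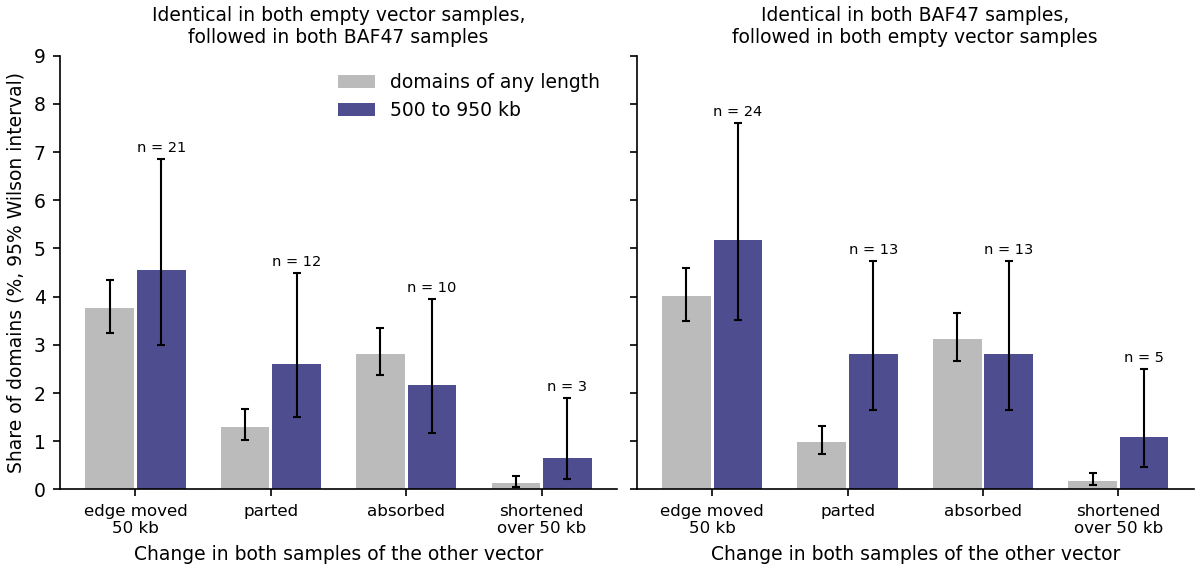
Share of domains (vertical axis, percent) that were moved, parted, absorbed or shortened in both samples of the other vector (horizontal axis), for large domains with their number above the bar and for domains of any length in grey; left, identical in both empty vector samples, right, identical in both BAF47 samples, with 95% Wilson intervals. The bars for large domains are alike in the 2 directions, with 12 and 13 parted and 10 and 13 absorbed.

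The 12 empty vector domains parted with BAF47 were 500 to 900 kb long and lay on 8 chromosomes, 3 of them on chromosome 1. All 12 shared the position of at least 1 inner edge between the BAF47 samples, with starts and ends counted together, and 8 had the same parts in both. On chromosome 6 (136 to 136.55 Mb) the only shared position was a start in BAF47 A and an end in BAF47 B. The inner starts and ends of that domain thus differed between the samples. Of the 12, 7 had 2 parts in both samples, and in 5 each sample had a part of 50 kb, the shortest the grid allows. On chromosome 1 a 900 kb domain (17.85 to 18.75 Mb) was listed as 200 and 650 kb in both BAF47 samples, with both flanking domains identical in all 4 lists. On chromosome 5 a 900 kb domain (35 to 35.9 Mb) was listed as 100, 350 and 300 kb in both, its start 50 kb further in. On chromosome 2 an 850 kb domain (79.05 to 79.9 Mb) stood between domains of 3.25 and 4.5 Mb in both empty vector samples. It was listed as 150 and 600 kb in BAF47 A and as 100 and 600 kb in BAF47 B. A large part of 600 kb from 79.25 to 79.85 Mb was common to both.

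The next 3 by length measured 650 kb each. On chromosome 5 the domain from 148.15 to 148.8 Mb was listed as 500 and 100 kb in both BAF47 samples. On chromosome 6 the domain from 166.75 to 167.4 Mb was listed as 50, 250 and 200 kb in both. On chromosome 10 the domain from 38.05 to 38.7 Mb was listed as 150, 100, 200 and 50 kb in both. The large neighbour of the last, 850 kb from 37.15 to 38 Mb, was whole in both empty vector samples and in BAF47 A. Requiring identical outer edges left 7 of the 12.

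The 13 BAF47 domains that were parted with empty vector lay on 8 chromosomes, 4 of them on chromosome 4. All 13 shared an inner edge between the empty vector samples, 8 had the same parts, and 8 kept identical outer edges. The longest, 950 kb on chromosome 4 (95.85 to 96.8 Mb), was listed as 50, 150, 400 and 150 kb in both empty vector samples. On chromosome 2 an 800 kb domain (234.45 to 235.25 Mb) was listed as 650 and 50 kb in empty vector A and as 700 and 50 kb in empty vector B, a trimming rather than a division in the middle. On chromosome 8 an 800 kb domain (42.95 to 43.75 Mb) was listed as 50 and 600 kb in both, with an unlisted stretch between the parts.

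Of the next 3, the chromosome 4 domain of 750 kb (17.25 to 18 Mb) was listed as 200 and 500 kb in both empty vector samples. The chromosome 5 domain of 750 kb (73.85 to 74.6 Mb) was listed as 450 and 250 kb in both. The chromosome 4 domain of 700 kb (125.9 to 126.6 Mb) was listed as 200, 50, 200 and 50 kb in empty vector A and 250, 50, 200 and 50 kb in empty vector B. In 4 of the 12 and 4 of the 13 parted domains at least 1 sample kept a part of 500 kb or more, so that the part stayed in the class.

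**Figure D4:**
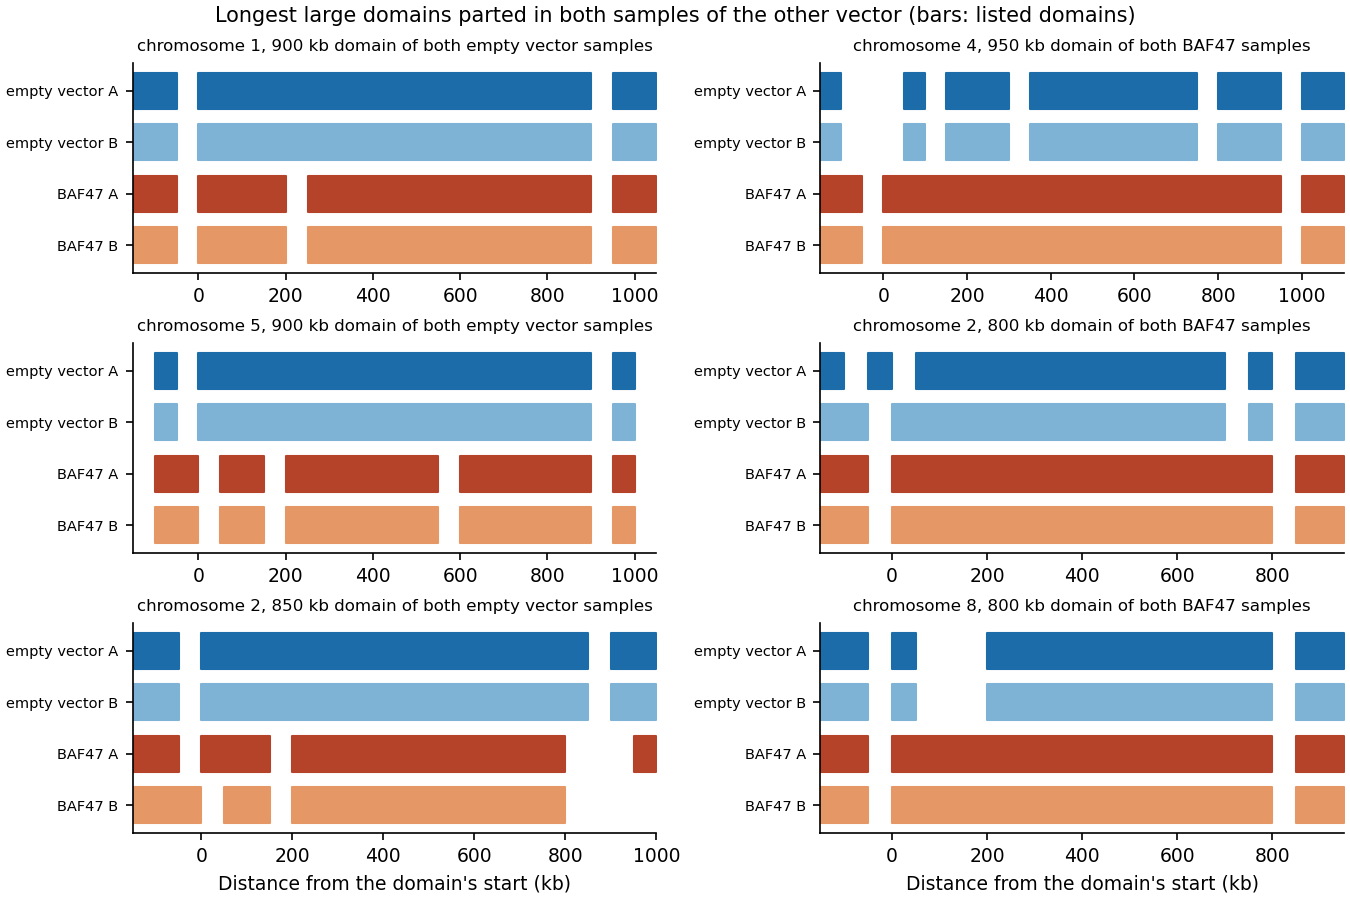
Listed domains (bars) of the 4 samples around the 3 longest large domains parted with BAF47 (left column) and the 3 longest parted with empty vector (right column); the horizontal axis is the distance in kb from the domain's start, and unlisted bins are white. In each panel the 2 lists of one vector show a single bar where those of the other show 2 to 4, as with 200 and 650 kb in place of 900 kb on chromosome 1.

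Absorbed large domains were mostly joined to at least 1 whole neighbour. Of the 10 empty vector domains absorbed with BAF47, 8 were joined to another whole domain in both samples. The longer domain had the same edges in both BAF47 samples for all 10, and measured 600 to 1700 kb. On chromosome 10 the domain of 900 kb (33.6 to 34.5 Mb) and its 350 kb neighbour were listed as 1300 kb in both BAF47 samples. On chromosome 7 an 850 kb domain (15.1 to 15.95 Mb) lay in a domain of 1350 kb, and on chromosome 9 one of 850 kb (16.15 to 17 Mb) lay in one of 1200 kb. On chromosome 5, a pair of adjoining 600 kb domains (47.7 to 48.3 and 48.35 to 48.95 Mb) and the 350 kb domain before them gave way to 1 domain of 1700 kb. In 5 of the 10 the longer domain reached 1 Mb, and in the other 5 it stayed within 500 to 950 kb.

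In the other direction, 13 BAF47 domains lay inside longer empty vector domains of 650 to 2050 kb. For 12 of the 13 that longer domain had the same edges in both empty vector samples, and 2 of the 13 shared one. The longer domain spanned another whole domain in both samples for 8 of the 13. On chromosome 2 a 950 kb BAF47 domain (40.8 to 41.75 Mb) lay inside an empty vector domain of 2050 kb. On chromosome 1 the adjoining BAF47 domains of 900 kb (209.6 to 210.5 Mb) and 600 kb (210.55 to 211.15 Mb) filled an empty vector domain of 1550 kb. On chromosome 17 a BAF47 domain of 850 kb (36 to 36.85 Mb) with a 150 kb neighbour stood in place of 1050 kb. On chromosome 9 a BAF47 domain of 750 kb (89.55 to 90.3 Mb, listed at 89.6 to 90.35 Mb) lay in one of 1250 kb. Absorption and parting are in part the same events seen from each side: 3 of the 13 lay inside a large empty vector domain counted as parted, and 3 of the 10 inside such a BAF47 domain.

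A move of 1 edge by a single bin was the most common change found in both samples of the other vector, and it lengthened domains about as often as it trimmed them. All 21 empty vector domains moved in both BAF47 samples were moved in the same way in both. The domain was shorter with BAF47 in 11 and longer in 10, and the change fell on the start in 11 and on the end in 10, never on both. For 10 of the 21 the neighbour followed, so that the gap stayed 50 kb and the boundary itself was displaced. Of the 24 BAF47 domains moved with empty vector, 19 were moved in the same way in both samples, 11 to a shorter and 8 to a longer domain. The 2 sets overlap, with 17 domains counted in both because each form lay in the size class. Moves by 1 bin are the smallest the lists can show. On the positions as listed, the empty vector domains so moved numbered 32.

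The longest moved domains show the pattern. On chromosome 16 the domain from 40.85 to 41.8 Mb (950 kb) began at 40.8 Mb in both BAF47 samples and so reached 1000 kb, and the neighbour before it shrank from 1200 to 1150 kb. On chromosome 6 the domain from 165.9 to 166.7 Mb (800 kb) ended 50 kb earlier with BAF47, beside the parted 650 kb domain described above. On chromosome 13 the domain from 90.45 to 91.25 Mb (800 kb) measured 850 kb with BAF47, and on chromosome 2 the one from 131.1 to 131.85 Mb (750 kb) measured 700 kb. Of BAF47 domains, 900 kb on chromosome 3 (25.85 to 26.75 Mb) began 50 kb later with empty vector and measured 900 kb in empty vector A and 850 kb in empty vector B. On chromosome 8 a 900 kb domain (62.55 to 63.45 Mb) measured 950 and 1000 kb with empty vector A and B. On chromosome 6 an 850 kb domain (143.1 to 143.95 Mb) measured 750 and 800 kb.

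Larger trims were rare. The 3 empty vector domains shortened in both BAF47 samples lost 100 to 250 kb, and the 5 BAF47 domains shortened in both empty vector samples each lost 100 kb. A single domain lost most of its span. It measured 650 kb on chromosome 17 (41.5 to 42.15 Mb) with empty vector A and B, and both BAF47 lists held only a pair of 100 kb domains there.

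The neighbours of large domains had a median length of 200 kb in each list, and a longer tail. Their mean length was 398 and 396 kb with empty vector and 386 and 401 kb with BAF47. The neighbours of 100 to 450 kb domains averaged 322 to 325 kb, with medians of 200 kb in 3 lists and 150 kb in BAF47 B. The means beside large domains were higher in 4 of 4 samples, by 60.9 to 78.8 kb (exact sign-flip permutation test, p = 0.13, the smallest possible), whereas the medians differed in a single list (exact sign-flip p = 1). Domains of 1 Mb or more had longer neighbours still, by 33.8 kb in the mean (exact sign-flip p = 0.13). The 4 lists share many domains, so the samples in the tests of neighbours, here and below, are not independent. On 13 of the 22 chromosomes the mean neighbour was longer beside large than beside 100 to 450 kb domains in all 4 samples. The widest differences were 265 kb on chromosome 13 and 176 kb on chromosome 20, and chromosomes 5 and 21 went the other way in all 4. Between vectors the mean neighbour of a large domain measured 397 ± 1.31 kb and 393 ± 10.7 kb (SD, n = 2), a difference within the spread.

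Large domains neighboured other large domains more often than domains of 100 to 450 kb did, but not clearly more often than domains of 1 Mb or more did. Of the neighbours of large domains 12.5% to 13.7% were themselves large, and of the neighbours of 100 to 450 kb domains 8.88% to 9.17% were, a difference of 4.02 points in 4 of 4 samples (exact sign-flip permutation test, p = 0.13, the smallest possible). Against domains of 1 Mb or more the difference was 0.442 points, from -0.893 to 1.29 over the samples (exact sign-flip p = 0.5). Gaps beside large domains were wider than beside those of 100 to 450 kb and narrower than beside those of 1 Mb or more. Of the gaps beside large domains, 82.7% to 84.2% were a single bin. The shares were 89.4% to 90.3% beside domains of 100 to 450 kb and 77.5% to 79.6% beside those of 1 Mb or more (exact sign-flip p = 0.13 for large against either class). By vector the large domains' values were 82.7% and 83.4% with empty vector and 84.0% and 84.2% with BAF47, which do not overlap. The same order held for all gaps, of which 87.1% and 86.7% were a single bin with empty vector and 87.6% and 88.0% with BAF47. Both comparisons of neighbours were chosen after the values were seen.

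Chromosomes differed several-fold in how many large domains they held per length. Per 100 Mb of listed domains the 22 autosomes together held 28.5 ± 0.399 (SD over the 4 samples). Chromosome 12 was highest with 37.7 ± 1.25, from 36.3 to 39.3, followed by chromosome 7 with 35.1 ± 1.80 and chromosome 15 with 33.1 ± 1.72. Neighbours in this order overlap in their samples. Chromosome 16 was lowest with 10.9 ± 1.23, from 9.35 to 12.4, then chromosome 19 with 13.3 ± 1.07 and chromosome 21 with 13.9 ± 0.197, where neighbours in the order overlap again. Large domains made up 24.7% of the listed length of chromosome 12 and 6.64% of that of chromosome 16. The low chromosomes hold few members, 6 to 8 per list on chromosome 16, 5 or 6 on chromosome 19 and 4 on chromosome 21.

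**Figure D5:**
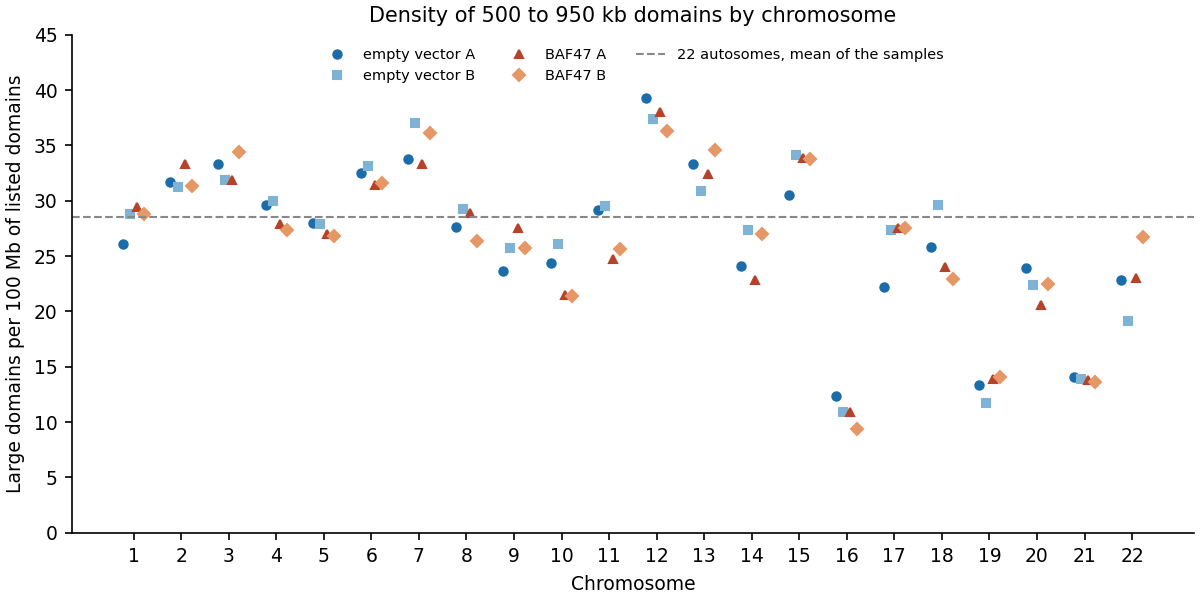
Large domains per 100 Mb of listed domains (vertical axis) on each chromosome (horizontal axis), 1 point per sample, with the mean over the autosomes as a dashed line. Chromosome 12 lies highest (36.3 to 39.3) and chromosomes 16, 19 and 21 lowest (9.35 to 14.1), and the samples of the 2 vectors overlap on 10 of the 22 chromosomes.

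Between vectors the density of large domains was higher in both BAF47 samples than in both empty vector samples on 4 chromosomes (1, 17, 19 and 22) and lower on 8 (4, 5, 6, 10, 11, 16, 18 and 21). For domains of any length the same held on 18.2% and 22.7% of chromosomes, that is 4 and 5 of 22. The density also depends on the listed length of the chromosome. On chromosomes 1, 5, 16, 17, 18, 19, 21 and 22 the numbers of large domains overlapped between vectors, and chromosome 21 held 4 in every list. By plain number, both BAF47 samples held fewer large domains on chromosomes 4, 6, 10 and 11 and more on 0 chromosomes, where domains of any length were fewer on 0% and more numerous on 18.2%. On chromosome 10 the lists held 26 and 28 large domains with empty vector and 23 in each BAF47 list. On chromosome 11 they held 27 in each empty vector list and 24 and 26 with BAF47. On chromosome 6 they held 42 and 43 against 41 in each BAF47 list, and there the domains of any length were more numerous with BAF47. On chromosome 4 they held 48 and 49 against 46 and 45. These gaps of 1 to 5 domains were not tested singly.

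Retention also varied by chromosome. On chromosome 2, 43 of 88 distinct large domains (48.9%) were in all 4 lists. On chromosome 22 it was 1 of 13, on chromosome 20 it was 3 of 20, and on chromosome 14 it was 6 of 38. On chromosome 14 retention was low in the same vector too, with 53.7% kept in the same and 53.4% in the other vector as means over the samples. On chromosomes 4 and 5 the other-vector means were 58.1% and 59.0%, and the same-vector means 71.5% and 72.1%.

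With the numbering aligned, chromosome 9 did not stand apart between vectors. Of the 25 large domains of empty vector A there, 6 were identical in BAF47 A as listed and 20 aligned, and 21 were identical in empty vector B. Of the 29 of BAF47 A, 15 were identical in BAF47 B, which shares the offset, and 20 in empty vector A after alignment. The 2 BAF47 lists thus agreed less with each other than BAF47 A did with empty vector A.

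On chromosome 20 a difference between the vectors remained after alignment, in few domains. Of the 11 large domains of empty vector A, 9 were identical in empty vector B and 4 in each BAF47 list. Of the 10 of BAF47 A, 8 were identical in BAF47 B (3 as listed), 4 in empty vector A and 5 in empty vector B. Of the differing domains, 3 had an edge moved by 1 bin in both BAF47 samples. They ended at 9.25 in place of 9.3 Mb, began at 16.7 in place of 16.75 Mb, and ended at 23.25 in place of 23.3 Mb. The first lies before the offset begins, and all 3 are also seen in BAF47 A, whose numbering is in step. A 550 kb BAF47 domain (56.65 to 57.2 Mb) lay inside domains of 1900 kb in empty vector A and 1800 kb in empty vector B.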

How the data were processed

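Hi-C was made from 2 empty vector and 2 BAF47 samples. The authors deposited 1 list of domains per sample with chromosome, start and end in base pairs (unit: other) and no score, count or coverage. Per the submitters' processing notes, hg18 was the build. What aligner, domain caller and filters were used is not given in the sources used here, depth is unknown, and no gene or sequence was placed. Lists were read and compared with Python 3.11.15 and scipy 1.17.1. Offsets of up to 3 bins from empty vector A were traced by a Viterbi path (10 matched starts per change, blocks of at least 10 matched starts), and the path and the calls were tested on simulated lists. The members, rules and named regions were chosen with earlier results of these data known. Regions named were, in each direction, the 6 longest parted, 4 longest absorbed and 4 longest moved domains, the 3 longest runs of common domains, the 3 highest and 3 lowest chromosomes, and chromosomes 9 and 20. Others, such as the shortened and unlisted domains and chromosomes 2, 4, 5, 14 and 22, were named after their values were seen. Samples were compared by exact permutation of labels or signs. Alternatives were the numbering, the matching rule, the size limits, list ends and leaving out samples.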

Additional observations from a re-analysis of the deposited data

How the results depend on the processing

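The higher retention in the same vector kept its direction under 6 changes of numbering, chromosomes, matching, size limits or list ends, from 3.64 to 8.12 points. Over the 2 samples of the vector that kept both, it was 6.04 to 6.53 points without an empty vector sample and 5.22 to 6.66 points without a BAF47 sample, alternatives chosen after seeing the data. The share kept in both samples of the other vector rose from 71.6% and 71.3% to 85.0% and 85.7% with edges within 50 kb and to 88.7% and 89.8% with 80% reciprocal overlap, as wider matching must give. With identical outer edges, 7 and 8 domains were parted in place of 12 and 13. As listed, 32 empty vector domains were moved in place of 21, since the offset is itself a move of 1 bin. Large against 100 to 450 kb domains turned to -0.283 points in the same vector with edges within 50 kb and to 10.5 points in the other vector with 80% overlap, and large against megabase domains turned to -2.39 points with 80% overlap. The number of large domains turned to 3.50 more with BAF47 without domains at list ends or unlisted stretches of over 500 kb. With 1 sample left out, the other standing alone for its vector, this difference was between -10.5 and 4.50 without an empty vector sample and between -4.50 and -1.5 without a BAF47 sample. Fates then had to hold in fewer lists, and the counts moved by construction. Without an empty vector sample, 58.3% to 58.9% of empty vector and 78.4% to 79.5% of BAF47 domains were kept, 28 to 34 and 21 to 24 parted, 49 to 55 and 47 to 48 moved, and 20 to 21 and 16 to 18 absorbed. Without a BAF47 sample, 78.7% to 79.8% and 58.4% to 59.5% were kept, 22 to 29 and 22 to 24 parted, 44 to 48 and 48 to 59 moved, and 15 to 20 and 26 to 29 absorbed. A replicate block on the letters gave a difference of -3 large domains (exact sign-flip p = 1; 2 pairs cannot give less than 0.5). The labels do not pair the letters, and A minus B differences per chromosome did not run together (r = -0.000537 over 22 chromosomes). No domain carries a score or count, so no stricter cut was tried.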
